A study of Mus musculus with 4 samples.

Results

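The genes described here encode the proteins of the cytosolic ribosome. They were chosen by name, as every gene called Rpl or Rps followed by a number with at most a short suffix, together with Rplp0, Rplp1, Rplp2 and Rpsa, and were then selected on measured values, as those with at least 1000 unique molecular identifiers (UMIs) over 4 libraries of liver immune cells. The kinases whose names begin with Rps6k were left out. Of 32285 genes, 83 matched the names and 81 passed the minimum, 49 of the large subunit and 32 of the small subunit. The lowest member, Rpl3l, held 1378 UMIs among all deposited cells, while Rpl39l, with 539, and Rpl10l, with 0, fell outside. Fau, Rack1 and Rpl36al, which encode further proteins of the ribosome or bound to it, do not match the names and were counted apart from the members.

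The ribosome joins a small subunit, which reads the messenger RNA, to a large subunit, which forms the peptide bond. Each subunit holds a fixed set of proteins in equal number, apart from the stalk proteins, and most of their messenger RNAs begin with a run of pyrimidines, the TOP motif, through which the mTOR pathway controls their translation. Lymphocytes leaving quiescence enlarge their pool of ribosomes, and in single-cell libraries the ribosomal protein messages are among the most abundant of all, so that a cell type's share of them also depends on what else the cell transcribes.

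The libraries held CD45+ cells sorted from livers of female C57BL/6 mice, with 1 library for each of 4 groups and so no replicate of any group. The young WT library came from untreated mice of about 8 weeks. The other groups were 36 weeks old, had received diethylnitrosamine (DEN, a liver carcinogen; 25 mg/kg) by intraperitoneal injection on day 14 after birth, and were fed a high-fat, choline-deficient diet (CDHFD) from weaning on day 21. They were WT, miR-146a-/- (lacking a microRNA that restrains NF-kB signalling) and miR-146a-/- Ccl5-/- (DKO, also lacking the chemokine Ccl5). How many mice entered each library is not stated in the labels. Young and DEN-CDHFD WT mice differed in age, carcinogen and diet together, and these cannot be told apart.

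After limits on genes detected and on mitochondrial UMIs, 10283 young WT, 8329 DEN-CDHFD WT, 7824 miR-146a-/- and 9850 DKO cells were kept, with median depths of 6782, 8210, 7910 and 7558 UMIs. The kept cells of the 4 libraries held 83882711, 84158257, 79464882 and 96747482 UMIs in the same order, which is the order used for all sets of 4 values below. Between 109 and 150 cell barcodes were shared by each pair of libraries, at most 1.64% of a library. Ccl5 was at 6174, 12544, 12496 and 65.4 CPM (counts of a gene scaled to a common library total), so the library labelled DKO held the fewest Ccl5 transcripts, as its label states. No gene row exists for miR-146a, and that genotype could not be checked. Ptprc, which encodes CD45, the antigen of the sort, was at 1088, 980, 1035 and 1065 CPM.

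Cells were assigned to 18 classes by marker transcripts, and names ending in "-like" refer to these gates. Of 36286 kept cells, 24843 (68.5%) met exactly 1 gate, 11382 met none, and 61 met several and were left out; no doublet caller was run. In 10 classes every library had at least 50 cells. Cells gated on Xcr1 and Clec9a, markers of cross-presenting dendritic cells, are called by those genes because the gate rests on 2 markers alone. Some classes drew mainly on 1 library: 76.8% of the NKT-like cells were young WT and 59.4% of the patrolling monocyte-like cells were DKO. For this reason classes are compared by means that weight the 4 libraries equally.

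The DEN-CDHFD WT library stood apart in its short ribosomal protein genes. Rps29, a zinc-binding protein of the small subunit with a coding length of 168 bases, was at 1612, 971, 1545 and 1501 CPM. Rpl38, a small protein of the large subunit (210 bases), was at 1491, 868, 1301 and 1273. Rps28, of the small subunit (207 bases), was at 1374, 848, 1293 and 1260. In each of these genes the DEN-CDHFD WT library was lowest and the other 3 lay close together. The 10 members with under 300 coding bases, Rpl41, Rpl39, Rps29, Rps28, Rpl38, Rps21, Rps27, Rps27l, Rpl37a and Rpl37, made up 10.3%, 7.92%, 10.6% and 10.1% of member UMIs, and the DEN-CDHFD WT library was lowest in 10 of the 10 common classes.

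Over the members, the log2 ratio of DEN-CDHFD WT to young WT followed coding length, with a Spearman correlation of 0.62 over 80 genes when all kept cells were pooled and between 0.54 and 0.72 within the 10 classes. For miR-146a-/- over DEN-CDHFD WT the correlation was -0.65 over 81 genes, and between -0.75 and -0.60 within classes. Between libraries other than DEN-CDHFD WT it was weak: -0.03 to 0.32 for DKO over miR-146a-/- and -0.19 to 0.20 for miR-146a-/- over young WT. With transcript length in place of coding length, the pooled correlations of members were weaker. They were 0.30 for DEN-CDHFD WT over young WT and -0.39 for miR-146a-/- over DEN-CDHFD WT. Genes are not independent replicates, and the correlations share their libraries. Rps27l was the exception among the short members, at 113, 161, 149 and 164 CPM, with young WT lowest.

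Genes outside the members showed little of this by coding length: 222 other genes under 300 coding bases had a median log2 ratio of 0.07 for DEN-CDHFD WT over young WT, and 224 had one of 0.00 for miR-146a-/- over DEN-CDHFD WT. By transcript length, counted over genes with at least 5000 UMIs in the libraries compared, 5 of 5 other genes under 400 bases and 24 of 28 between 400 and 500 bases were higher in miR-146a-/- than in DEN-CDHFD WT, as were 6 of 6 members under 400 bases and 3 of 5 members between 400 and 500. Other genes between 400 and 500 bases were also higher in miR-146a-/- than in young WT (23 of 29), and 18 of 28 were lower in DEN-CDHFD WT than in young WT, so in this range young WT was low too. Among the shortest of those other genes, the mitochondrial mt-Atp8 was at 390, 122, 205 and 194 CPM and mt-Nd4l at 645, 528, 530 and 497, the latter lowest in DKO, and the nuclear Atp5k, a subunit of ATP synthase, was at 81.2, 57.4, 87.8 and 82.3. A fragment-size difference in library preparation and a difference in the cells were not tested against each other. The comparisons with the DEN-CDHFD WT library below are therefore given also without the 10 short members, an alternative chosen after the data were seen.

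**Figure D1:**
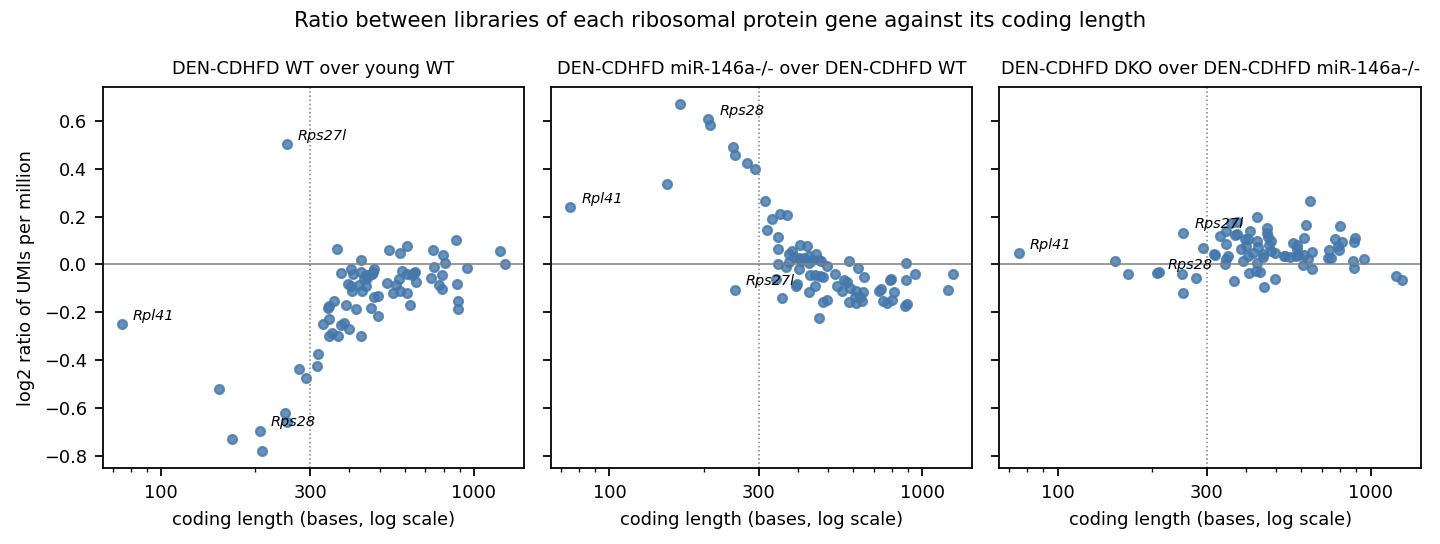
Log2 ratio of CPM between libraries, all kept cells pooled, for 80 ribosomal protein genes (points; Rpl3l is not drawn) against coding length in bases on a log scale, for 3 comparisons; the dotted line marks 300 bases. Short genes lie below 0 in DEN-CDHFD WT over young WT and above 0 in miR-146a-/- over DEN-CDHFD WT, with Rps27l on the other side in both, and lie near 0 in DKO over miR-146a-/-.

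The members were expressed over a wide range. On average over the 4 libraries, 69 exceeded 1000 CPM and 23 exceeded 3000, with a median of 2162. These are levels of transcripts read from their 5′ ends, 1 UMI per captured molecule, and were not divided by length. The 5 most abundant, which together gave 12.2% of member UMIs, were Rps24 and Rps16 of the small subunit, Rpl13 and Rpl19 of the large subunit, and Rpsa, a small-subunit protein that also serves as a laminin receptor. Rps24 was at 6574, 5445, 5139 and 5418 CPM and Rpsa at 4385, 4140, 3961 and 3919. At the other end stood Rpl3l with 0.906, 0.749, 6.47 and 6.68, Rpl7l1 with 54.8, 57.0, 53.0 and 55.3, and Rps27l. All 3 are paralogs of a far more abundant member. Rpl22l1, at 455, 476, 473 and 450, was also among the least abundant. The members were spread over 19 chromosomes, with at most 14 on 1 of them (chromosome 7), and 4 lay on the X.

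The stalk of the large subunit, which recruits the translation factors, is built from Rplp0, Rplp1 and Rplp2. Rplp0 was at 3495, 3461, 3367 and 3421 CPM, Rplp1 at 3367, 2966, 2842 and 2843, and Rplp2 at 2419, 1966, 1969 and 2088. Rplp0 differed little between libraries, and Rplp1 and Rplp2 were highest in young WT. Rps27a, whose product is made as a fusion to ubiquitin, was at 3395, 3303, 3349 and 3670.

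The starts of members are shown because most ribosomal protein messages are known to open with a pyrimidine run. RefSeq promoter entries on GRCm38.p6 were found for 61 of 81 members. In 35 of the 61 (57.4%), a C followed by at least 4 bases that are each C or T began within 5 bases before to 10 bases after an annotated start, on the gene's own strand; the same held for 26.5% of the 27025 genes of the table, 21 of 69 mitochondrial ribosome genes (30.4%) and 7 of 12 other genes of the TOP class. Fewer than 80% of members were matched, so the comparison of these shares is void as a check of the members, and the matches are a description of these windows only. The windows below, 30 bases around the start as RefSeq gives them, show long runs, a short run and starts without one; capitals mark the run. They are Rpl27a (chr7:109519180-109519209, + strand), Rpl15 (chr14:18270972-18271001, - strand), Rpl35 (chr2:39005117-39005146, - strand), Rps10 (chr17:27635230-27635259, - strand), Rps27l (chr9:66946071-66946100, + strand), Rps28 (chr17:33824548-33824577, - strand) and Rpl10 (chrX:74270801-74270830, + strand).
Rpl27a: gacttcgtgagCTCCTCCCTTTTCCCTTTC
Rpl15: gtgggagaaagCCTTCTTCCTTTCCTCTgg
Rpl35: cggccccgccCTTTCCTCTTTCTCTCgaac
Rps10: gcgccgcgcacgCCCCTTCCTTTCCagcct
Rps27l: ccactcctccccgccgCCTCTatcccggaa
Rps28: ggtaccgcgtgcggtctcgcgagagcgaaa
Rpl10: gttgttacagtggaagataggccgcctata
Counted from the first C within the searched bases, the runs in Rpl27a, Rpl15 and Rpl35 span 20, 17 and 16 bases and that of Rps27l spans 5. Pyrimidines before that C are not counted, and the run of Rpl27a goes past the end of the window.

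Ribosomal protein genes took 19.2%, 17.4%, 17.5% and 18.1% of all UMIs of the kept cells. Across the 10 common classes the share differed by up to 2.21 times within a library. Naive CD8 T-like cells were highest in every library, at 29.3%, 28.6%, 27.6% and 30.03%. B-like cells came next in every library, at 21.7%, 22.8%, 22.5% and 22.3%. Among the 10 common classes, patrolling monocyte-like cells, which survey the vessel wall, had the lowest mean, at 14.4%, 12.9%, 13.8% and 15.04%; in young WT the ILC1-like cells, at 13.9%, lay below them.

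Between these ends the means over 4 libraries ran from 19.3% in NKT-like cells through 18.9% in PD-1- non-naive CD8, 18.8% in conventional CD4 and 18.4% in PD-1+ CD8 T-like cells to 18.1% in cells gated on Xcr1 and Clec9a, 16.9% in NK-like and 16.0% in ILC1-like cells. Neighbours in this order differed by more than the larger of their SDs over the 4 libraries in 3 places: naive CD8 over B (6.56 points), B over NKT-like (2.99 points) and ILC1-like over patrolling monocyte-like cells (1.95 points). The other 6 pairs of neighbours did not. Without the DEN-CDHFD WT library, ranks 1 to 4 and 7 to 10 were unchanged, and PD-1+ CD8 and conventional CD4 T-like cells changed places.

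Some of the classes with enough cells in only part of the libraries lay at the low end. Others did not: gamma-delta T-like cells held 18.4%, 21.8% and 21.05% in young WT, DEN-CDHFD WT and DKO. Regulatory T-like cells held 18.04%, 17.01% and 17.5% in young WT, miR-146a-/- and DKO. Neutrophil-like cells, whose leading transcripts Mpo, Elane, Ngp and Ltf are those of granule-forming precursors, held 10.5% in miR-146a-/- and 12.3% in DKO. C1q-high macrophage-like cells held 11.9%, 14.5% and 15.1% in DEN-CDHFD WT, miR-146a-/- and DKO, and classical monocyte-like cells 12.2%, 14.5% and 15.6%. DEN-CDHFD WT was the lowest of the 3 in both the macrophage and the classical monocyte gates. Exact binomial 95% intervals were narrow (19.46% to 19.55% for PD-1+ CD8 T-like cells of young WT) and, like all intervals here, cover counting error only, not differences between mice.

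**Figure D2:**
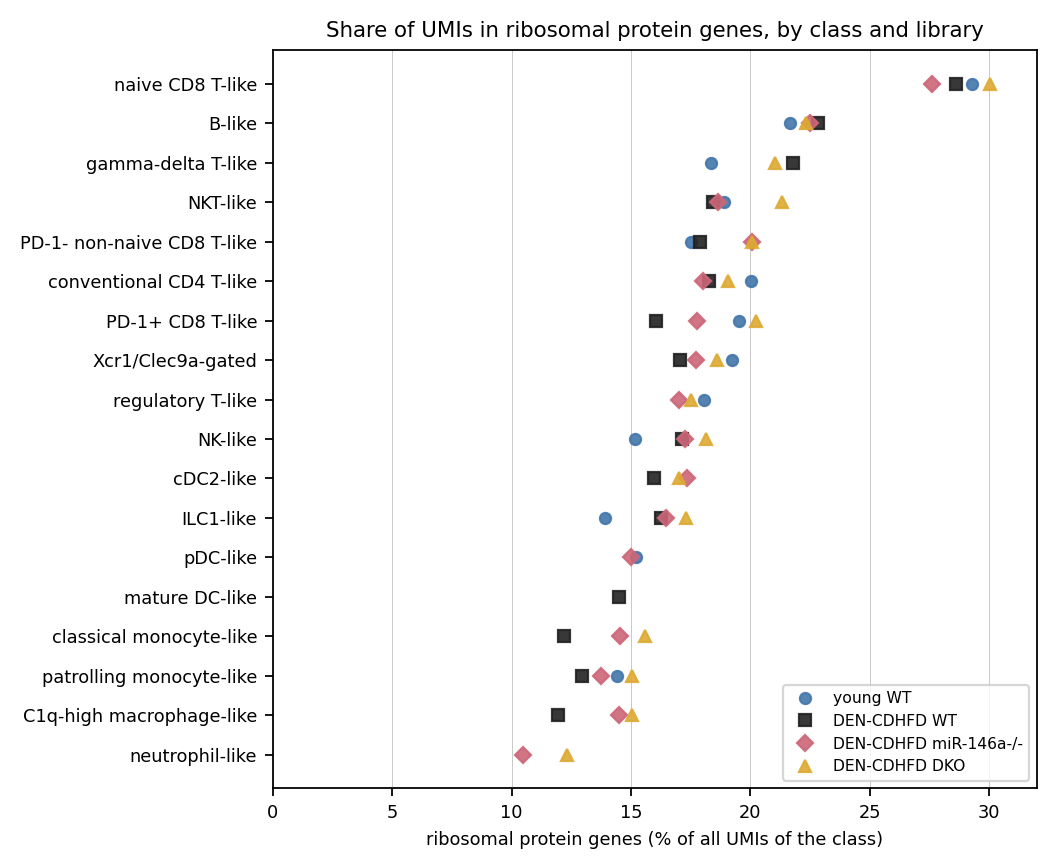
Percent of all UMIs in the 81 ribosomal protein genes, for 18 classes and 4 libraries; each point is 1 class in 1 library with at least 50 cells, and counting intervals are smaller than the points. Naive CD8 T-like cells lie between 27.6% and 30.03%, and patrolling monocyte-like cells between 12.9% and 15.04%.

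The large subunit, with more genes, took more UMIs than the small one in all 10 classes. The ratio of small-subunit to large-subunit UMIs ranged from a mean of 0.783 in NK-like to 0.856 in naive CD8 T-like cells, with B-like cells at 0.846. In naive cells it lay between 0.850 and 0.867 over the libraries and in NK-like cells between 0.773 and 0.798, so these ranges did not overlap.

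Within the CD8 gates, naive cells had 1.501, 1.78, 1.55 and 1.48 times the share of PD-1+ cells. Naive cells express homing receptors and few effector genes, whereas PD-1 marks cells that have met antigen. Of 80 members tested, 73 were higher past 1.2-fold in naive cells in all 4 libraries, where 7.93% of 3277 genes were, and 0 were lower in all 4, where 20.4% of genes were. The median member had a log2 ratio of 0.64, against -0.17 over all genes tested. Rps20, which contacts the ribosomal RNA of the small-subunit head, had the highest mean log2 ratio, 1.15. Those that did not pass in all libraries included Rps27l, with log2 ratios of -0.15, -0.36, -0.13 and -0.28, Rpl13a, with 0.13, 0.21, -0.04 and -0.06, and Rpl7l1, with -0.10, 0.01, 0.18 and 0.17.

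B-like cells compared with patrolling monocyte-like cells gave a wider range among members. Of 79 members tested, 65 were higher past 1.2-fold in all 4 libraries, where 27.2% of 2071 genes were, and 1 was lower in all 4, where 26.9% of genes were. The lower one was Rps27l, with a mean log2 ratio of -1.22. Rpl12, a protein of the stalk base, was the highest, at 1.59, and the median was 0.68. Rps27a (-0.20, 0.14, -0.16 and -0.23) and Rpl10 (0.03, 0.12, -0.02 and -0.06) differed little between these classes.

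Each member was next expressed as a percent of all member UMIs, which removes the overall share and leaves the make-up of the pool. For 80 members the highest class mean exceeded the lowest by a median of 0.39 on the log2 scale (1.31-fold), 58 differed by less than 1.5-fold, and 5 by more than 2-fold. Rpl3l had too few UMIs outside monocytes for this measure. Within single libraries the median spread was 0.39, 0.40, 0.48 and 0.43.

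The steadiest members were Rps4x, Rpl27a, Rps15 and Rpl6, with spreads of 0.15, 0.16, 0.18 and 0.19. Rps4x, a small-subunit protein encoded on the X chromosome, made up 1.82% of member UMIs in patrolling monocyte-like cells, its lowest class, and 2.02% in B-like cells, its highest. Rpl27a, whose start carries the longest run printed above, lay between 1.40% and 1.57%. Their levels thus followed the pool closely in all 10 classes.

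The widest were Rps27l (2.09), Rpl12 (1.21), Rps27 (1.07), Rps19 (1.04), Rpl7l1 (1.03), Rpl22l1 (1.00), Rpl13a (0.97) and Rpl10 (0.97). Rpl12 made up 0.776% of member UMIs in NKT-like cells and 0.334% in patrolling monocyte-like cells, and its levels in the latter were 525, 497, 400 and 448 CPM against 2278, 2286, 2026 and 2212 in naive CD8 T-like cells. Rps19, a small-subunit protein mutated in Diamond-Blackfan anaemia, went the other way: it was highest in patrolling monocyte-like cells (1.69%) and lowest in ILC1-like cells (0.820%), with that highest class in 4 of 4 libraries. Rps27, a small-subunit protein with a zinc finger, was highest in B-like cells (1.43%) and lowest in cells gated on Xcr1 and Clec9a (0.683%).

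Rpl13a and Rpl10 formed opposite patterns. Rpl13a, a large-subunit protein also known as a part of an interferon-induced repressor of translation, was highest in PD-1+ CD8 T-like cells (1.66%) and lowest in patrolling monocyte-like cells (0.845%). Rpl10, which completes the large subunit late in its assembly and lies on the X chromosome, was highest in patrolling monocyte-like cells (2.05%) and lowest in PD-1+ CD8 T-like cells (1.05%). Its level was 2161, 1757, 1675 and 2110 CPM in PD-1+ CD8 T-like cells and 2908, 2887, 2574 and 3131 in patrolling monocyte-like cells, although the latter had the smaller total share. Rps27a showed a like pattern, from 1.63% in B-like cells to 2.81% in patrolling monocyte-like cells, in 4 of 4 libraries.

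Among the stalk genes, Rplp0 varied most, from 1.41% in ILC1-like cells to 2.28% in naive CD8 T-like cells in 4 of 4 libraries. Its levels in naive cells were 6455, 6962, 6050 and 6847 CPM, and in ILC1-like cells 1823, 2543, 2360 and 2291. Rplp1 ranged from 1.26% to 1.86% and Rplp2 from 0.974% to 1.26%. Rpsa ranged from 1.82% in patrolling monocyte-like cells to 2.59% in conventional CD4 T-like cells.

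**Figure D3:**
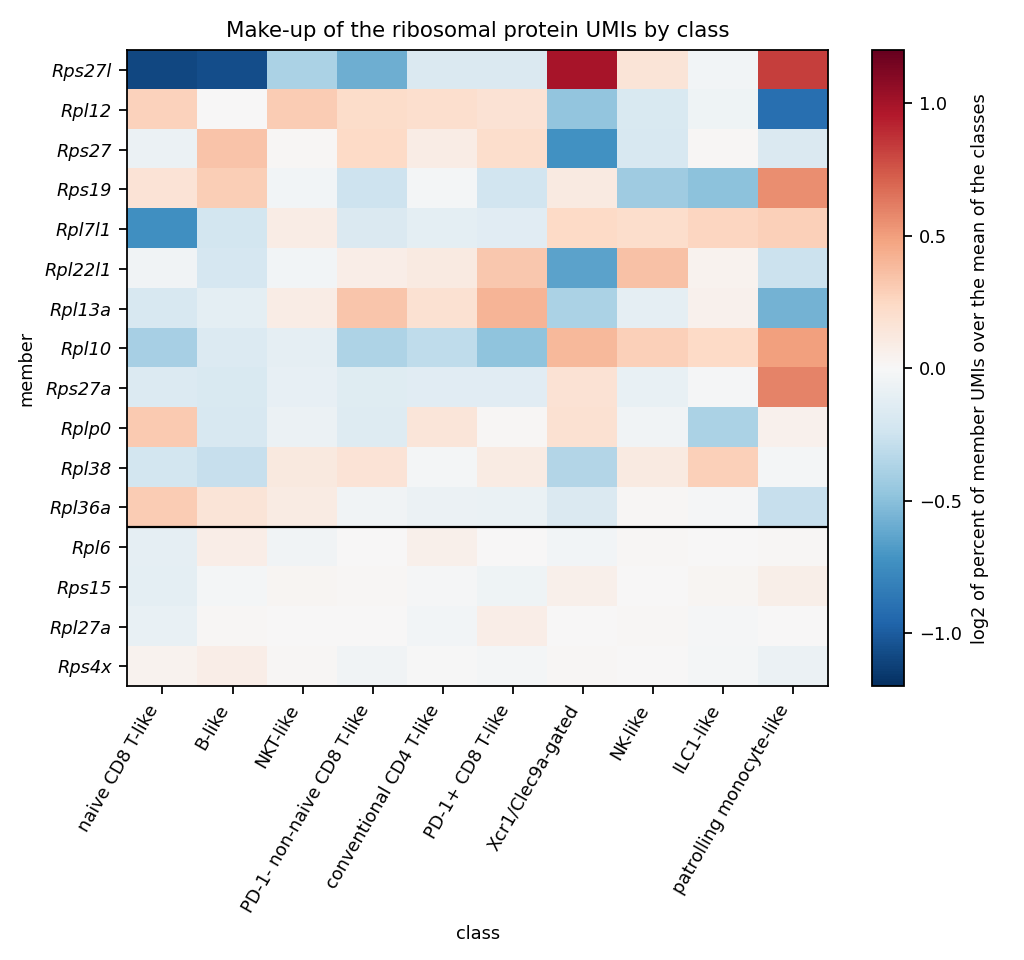
Make-up of the ribosomal protein UMIs in 10 classes (columns, ordered by total share) for 16 members (12 of wide spread above the line, the 4 narrowest below it); colour gives the log2 of a member's percent of member UMIs over its mean across the classes, libraries weighted equally. Rps27l runs from 0.0345% in naive CD8 T-like cells to 0.146% in cells gated on Xcr1 and Clec9a, and Rps4x stays between 1.82% and 2.02%.

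Several members have a paralog in the table, and the balance within such pairs depended on the class. Rps27l is known as a target of p53 and differs from Rps27 by few residues. Its UMIs amounted to 17.3%, 28.4%, 20.4% and 21.4% of those of Rps27 in cells gated on Xcr1 and Clec9a, and to 12.4%, 19.0%, 11.1% and 11.3% in patrolling monocyte-like cells. In B-like cells they amounted to 2.09%, 3.08%, 2.06% and 2.82%, below the range of both other classes. The DEN-CDHFD WT value was the highest in each of these classes, and in that library Rps27 itself was low, as above. Counted without reference to Rps27, the level of Rps27l was 253, 270, 260 and 276 in cells gated on Xcr1 and Clec9a and 71.0, 81.3, 76.1 and 85.9 in B-like cells. Outside the 10 common classes it reached 855 CPM in mature DC-like cells, from DEN-CDHFD WT alone, and a mean of 253 in C1q-high macrophage-like cells.

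Rpl22l1 replaces Rpl22 in part of the ribosomes and is known, with it, for a role in T-cell development. Its UMIs were 35.8%, 53.2%, 46.4% and 41.1% of those of Rpl22 in PD-1+ CD8 T-like cells. In naive CD8 T-like cells they were 35.1%, 39.1%, 35.9% and 33.3%, and in cells gated on Xcr1 and Clec9a 16.1%, 21.7%, 20.9% and 20.2%. By mean, cells gated on Xcr1 and Clec9a were lowest of the 10 classes, at 19.7%. PD-1+ CD8 T-like cells, at 44.1%, and NK-like cells, at 43.2%, were highest, and in young WT NK-like cells, at 44.2%, lay above PD-1+ cells. In PD-1+ cells Rpl22l1 was at 543, 591, 619 and 605 CPM while Rpl22 was at 1516, 1112, 1335 and 1473.

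The Rpl7 and Rpl36a pairs differed from these. Rpl7l1, which is known for a role in ribosome assembly, held 3.92%, 4.06%, 4.09% and 3.999% of the UMIs of Rpl7 over all cells, and 2.74% on average in naive CD8 T-like cells. Its level stayed between a mean of 50.6 and 65.2 CPM in the 10 classes, while the total share varied more, which widened its spread in the make-up. Rpl36al, outside the name rule, held 40.6%, 49.3%, 48.4% and 45.5% of the UMIs of Rpl36a in naive CD8 T-like cells and 105%, 138%, 109% and 106% in patrolling monocyte-like cells. Rpl39l, under the minimum, held at most 0.239% of the UMIs of Rpl39 in a common class.

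Rpl3l, the paralog of Rpl3 known from heart and skeletal muscle, was nearly confined to the monocyte, macrophage and neutrophil gates among gated cells of these libraries. Of its 1299 UMIs in kept cells, 701 (54.0%) were in patrolling monocyte-like cells, 140 in classical monocyte-like, 65 in neutrophil-like and 28 in C1q-high macrophage-like cells, and 343 in cells that met no gate. Rpl3l thus passed the minimum of 1000 UMIs mainly through these gates, together with the cells that met no gate. Its level in patrolling monocyte-like cells was 37.2, 5.56, 46.0 and 36.9 CPM, from 26, 9, 266 and 400 UMIs, so DEN-CDHFD WT was low here too. Naive CD8, NK-like and ILC1-like cells held 0 UMIs in any library, and no other common class held more than 2.

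Rpl3l lies on chromosome 17 (chr17:24727820-24736143, + strand, mm10), and 0 other annotated genes overlap it. It was among the 10 genes with the highest fold in patrolling monocyte-like cells over other cells. Its library totals of 76, 63, 514 and 646 UMIs stand beside 78, 164, 664 and 1328 patrolling monocyte-like cells. Those cells held 26, 9, 266 and 400 of these UMIs, and cells that met no gate held 34, 39, 154 and 116. The part of cell number in the library totals was not tested.

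**Figure D4:**
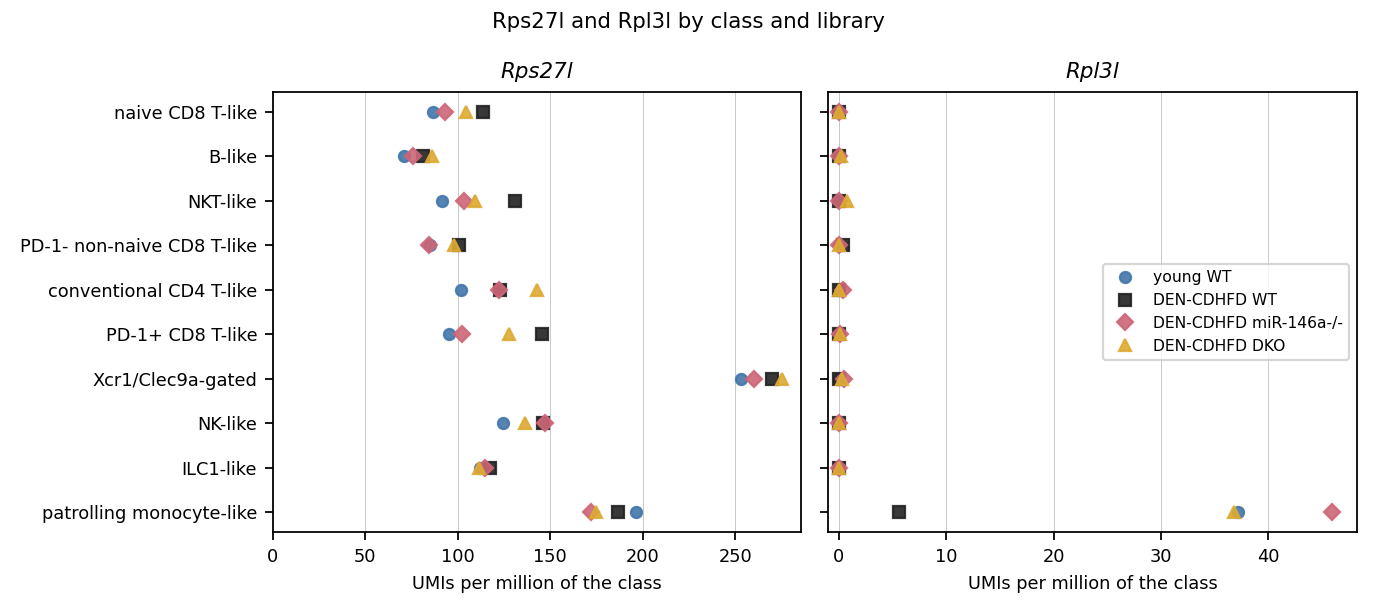
CPM of Rps27l (left) and Rpl3l (right) in the 10 common classes, 1 point per library. Of these classes Rps27l is highest in cells gated on Xcr1 and Clec9a, at 253 to 276, and Rpl3l is near 0 outside patrolling monocyte-like cells.

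Across 60 points, each a class in a library with at least 50 cells, the level of each member was correlated with the summed level of the other members. The points share libraries and classes, and the correlations are descriptive. The median Spearman correlation of members was 0.87, against 0.09 for 1519 other genes of at least 100 CPM; 71 of 81 members and 8.10% of the other genes exceeded 0.5. Rps27l (-0.68) and Rpl3l (-0.54) were below 0, and Rpl10 (0.01), Rpl7l1 (0.07) and Rps25 (0.23) followed the others least among the rest. The levels of most members thus varied together across classes.

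Outside the members, 123 of the 1519 genes exceeded 0.5, and those with the highest correlations are named here. Rack1, a scaffold on the small subunit that the name rule leaves out, had a correlation of 0.86, the elongation factor subunits Eef1b2, Eef1a1, Eef1g and Eef1d 0.83, 0.80, 0.80 and 0.76, the initiation factor Eif3e 0.83 and the nucleolar chaperone Npm1 0.81. Gas5, a host of small nucleolar RNAs, and Tpt1, both with TOP starts, followed at 0.76 each, and Gramd3 was at 0.77. The lowest were Cstb (-0.86), an inhibitor of cathepsins, Sppl2a (-0.86), an intramembrane protease of lysosomes, Mapkapk2 (-0.84), a kinase downstream of p38, Litaf (-0.83) and Cers6 (-0.82), a ceramide synthase.

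Lists of related genes gave graded values over the same 60 points. The summed level of 17 other TOP genes had a correlation of 0.92 with the member share and that of 31 translation factors 0.81; the lists share genes, and Eef1a1 was the most abundant of each. Ribosome biogenesis (32 genes, led by Ncl) was at 0.63. The 78 mitochondrial ribosome genes, led by Mrpl52, were at 0.04 in summed level. Single genes varied: 12 of 17 TOP genes, 15 of 31 translation factors and 18 of 32 biogenesis genes exceeded 0.5, and Vim, an intermediate filament gene of the TOP list, was at -0.42.

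Lists read as quality checks differed in how far they followed the share. Mitochondrial transcripts (13 genes, led by mt-Co1) had a correlation of 0.57, nuclear-retained RNAs, led by Malat1, 0.16, the cycling list, led by Mki67, 0.34, and the erythroid list, led by Hbb-bs, 0.12. The hepatocyte list, led by Trf, was at -0.65, and summed to 84.9, 76.4, 43.8 and 53.1 CPM. Alb, its defining gene, was at 10.2, 9.07, 5.17 and 6.71. Their part in the differences between classes was not tested.

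Whether age, carcinogen and diet changed the share was asked within 11 classes by comparing DEN-CDHFD WT with young WT. PD-1+ CD8 T-like cells had 19.5% in young WT and 16.0% in DEN-CDHFD WT, a difference of -3.48 points, the lowest of the 11, and cells gated on Xcr1 and Clec9a 19.2% and 17.1% (-2.16 points, but 1.93 in cells of 3000 to 12000 UMIs). The 5 classes that were higher included ILC1-like cells, which had 13.9% in young WT and 16.3% in DEN-CDHFD WT (2.34 points), NK-like cells 15.2% and 17.1% (1.98 points), and gamma-delta T-like cells 18.4% and 21.8% (3.43 points). B-like (1.16) and PD-1- non-naive CD8 T-like cells (0.358) were higher too, but turned to -0.451 and -2.28 with gates read on thinned cells, and B-like cells also to -0.0938 in cells of 3000 to 12000 UMIs. The other 6 classes were lower, and the median difference was -0.445 points. Without the 10 short members the median was 0.0576 and naive CD8 and NKT-like cells changed sign, whereas PD-1+ CD8 T-like cells stayed lower.

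Loss of miR-146a was read from miR-146a-/- against DEN-CDHFD WT in 13 classes. The share was higher in 10 and lower in 3, with a median of 0.640 points. This median is the value of cells gated on Xcr1 and Clec9a, which turned to -0.397 with gates read on thinned cells and to -0.546 in cells of 3000 to 12000 UMIs; thinned gates also turned NKT-like (-1.23) and cDC2-like cells (-0.0863). The differences were greatest in C1q-high macrophage-like cells (2.57 points), classical monocyte-like cells (2.32, but -0.159 in cells of 3000 to 12000 UMIs), PD-1- non-naive CD8 (2.20) and PD-1+ CD8 T-like cells (1.74). Naive CD8 T-like cells were lower by the most, at -0.999 points, followed by B-like (-0.307) and conventional CD4 T-like cells (-0.263). The sign of these last values depended on the processing: B-like cells gave 0.0788 to 0.456 under 5 alternatives and conventional CD4 T-like cells 0.0599 and 0.0905 under 2. Without the short members the median was 0.211, and NKT-like (-0.332), NK-like (-0.335) and ILC1-like cells (-0.265) turned to lower values, while the macrophage, monocyte and non-naive CD8 differences kept their sign. The lower classes moved further down: the other members took 26.5% in DEN-CDHFD WT and 24.8% in miR-146a-/- in naive CD8 T-like cells, 20.99% and 20.1% in B-like cells, and 16.8% and 16.1% in conventional CD4 T-like cells.

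The added loss of Ccl5 was read from DKO against miR-146a-/- in 15 classes, a comparison that does not involve the library that stands apart. The share was higher in 12 classes and lower in 2. Of these, C1q-high macrophage-like cells (0.551) and cells gated on Xcr1 and Clec9a (0.889) turned to -0.956 and -0.530 in cells of 3000 to 12000 UMIs, and cDC2-like cells (-0.342) to 0.728 with gates read on thinned cells. In PD-1- non-naive CD8 T-like cells (-0.0196 points) the interval held 0. The median was 0.889 points, and 0.852 without the short members. Ccl5 counts in the denominator, at 12496 CPM in miR-146a-/- and 65.4 in DKO over all kept cells. Its loss alone thus raises the share of all other genes in DKO. With mitochondrial, Ccl5 and antigen receptor genes taken out of the denominator, the median was 0.897 points. The part of Ccl5 was not separated from that of the other genes taken out. NKT-like cells had 18.7% in miR-146a-/- and 21.3% in DKO (2.69 points), PD-1+ CD8 T-like cells 17.8% and 20.2% (2.45), naive CD8 T-like cells 27.6% and 30.03% (2.41), and neutrophil-like cells 10.5% and 12.3% (1.84). B-like cells differed by -0.194 points, but by 1.499 when mitochondrial, Ccl5 and antigen receptor genes, which include the immunoglobulins, were taken out of the denominator. Over the 10 common classes the mean share was 19.0%, 18.5%, 19.0% and 20.2%, with DKO highest in 6 classes and lowest in 0.

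**Figure D5:**
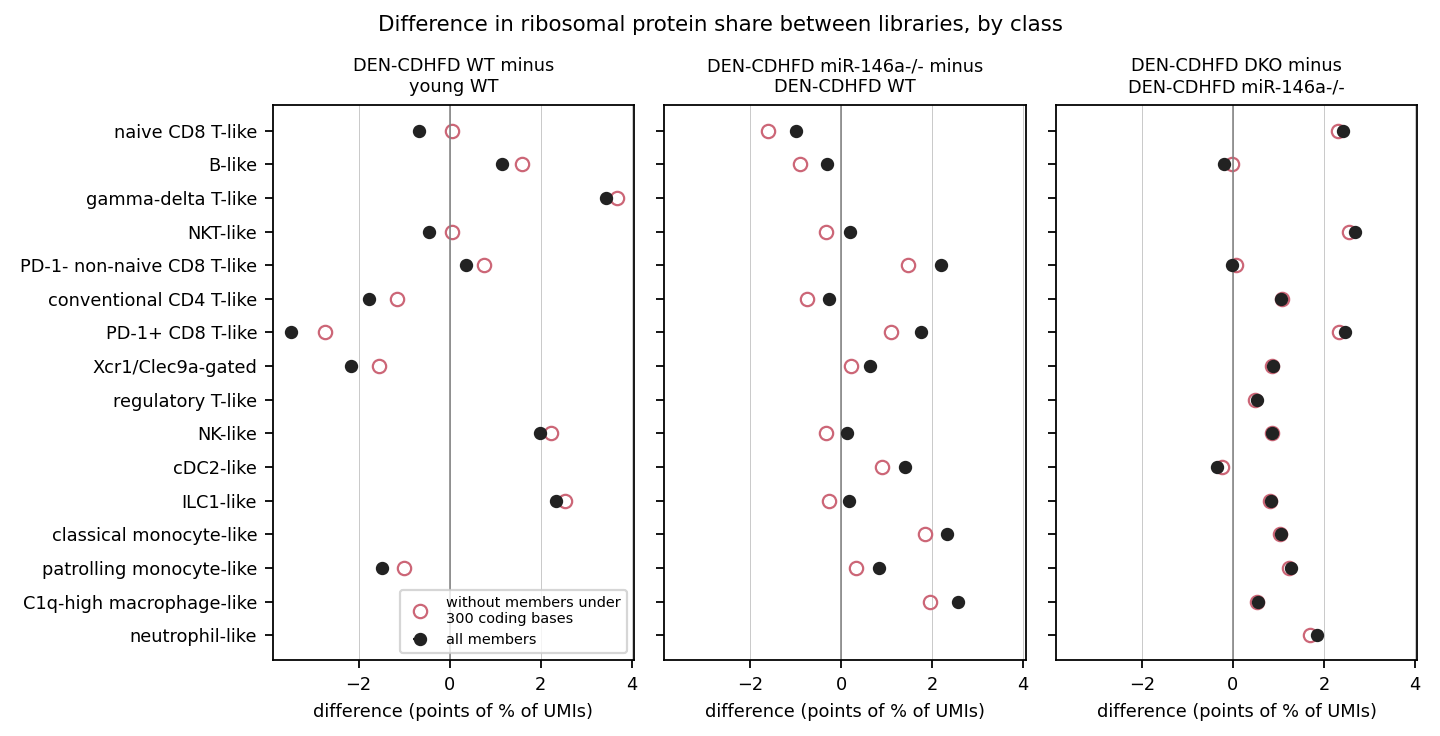
Difference in the percent of UMIs in ribosomal protein genes between pairs of libraries, in points, for each class with at least 50 cells in both; filled points use all members, with 95% counting intervals that are mostly smaller than the points, and open points leave out the 10 members under 300 coding bases. PD-1+ CD8 T-like cells lie at -3.48, 1.74 and 2.45 points in the 3 panels, and the open points are shifted against the filled ones where DEN-CDHFD WT is compared.

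Single members were compared between libraries in 4 classes, with a call past 1.2-fold. In PD-1+ CD8 T-like cells, DEN-CDHFD WT over young WT gave 1 member higher and 41 lower of 80, where 35.1% of 4452 genes were called in either direction. With the short members left out, 0 were higher and 32 lower. With TMM scaling, 1 of the 80 was higher and 29 were lower. Rps28 had the lowest log2 ratio, -1.02, from 1371 to 677 CPM, followed by Rps29 (-0.87) and Rpl38 (-0.85). Rps27l was the member that was higher, at 95.5 in young WT and 145.8 in DEN-CDHFD WT (0.61). The median member was at -0.27, against 0.01 over all genes.

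In the same comparison NK-like cells showed 23 members higher and 5 lower, where 23.9% of genes were called, with a median of 0.19; without the short members 23 were higher and 0 lower. Rps2, at the entry of the messenger RNA channel, Rps19 and Rpl3, near the catalytic centre of the large subunit, led with log2 ratios of 0.48, 0.46 and 0.45, and Rps29, Rpl38 and Rps27 were lowest at -0.53, -0.49 and -0.42. B-like cells had 3 higher and 6 lower, where 15.1% were called, and 3 higher and 0 lower without the short members; Rps9 was highest at 0.31, Rpl3 followed at 0.29 and Rps18 at 0.26, and Rps29 and Rpl38, at -0.59 each, and Rps28, at -0.55, were lowest. With TMM scaling, 0 were higher and 8 lower in B-like cells.

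For miR-146a-/- over DEN-CDHFD WT, PD-1+ CD8 T-like cells had 16 members higher and 1 lower, where 25.2% of genes were called, and 8 higher and 0 lower with the short members left out. Rpl38 (0.84), Rps21 (0.79) and Rps28 (0.79) led, and Rps27l (-0.51), Rpl7l1 (-0.21) and Rpl15 (-0.15) were lowest. Classical monocyte-like cells had 31 higher and 0 lower of 79, where 41% were called, led by Rps29 (0.75), Rps21 (0.65) and Rpl39 (0.63), with a median of 0.21, and 22 higher and 0 lower without the short members; the lowest, Rpl10, was at -0.01.

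B-like and NK-like cells had fewer calls in that comparison. B-like cells had 8 higher and 2 lower (23.2% called), but 0 higher and 2 lower without the short members, with Rps29 at 0.70, Rps28 at 0.63 and Rpl38 at 0.51 and, lowest, Rpl7a at -0.35, Rpl10 at -0.31 and Rpl5 at -0.23. NK-like cells had 9 higher and 1 lower (22.6% called), but 1 higher and 1 lower without the short members, with Rpl38 at 0.68, Rps29 at 0.65 and Rps21 at 0.56 and, lowest, Rpl7a at -0.33, Rpl23a at -0.18 and Rps2 at -0.16. The members named as highest in these 4 classes, Rpl38, Rps29, Rps28, Rps21 and Rpl39, all have under 300 coding bases.

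Among the 4 classes compared by member, DKO over miR-146a-/- gave most calls in PD-1+ CD8 T-like cells. There 20 members were higher and 0 lower, where 14.5% of genes were called, with a median of 0.19. Of the higher ones, 19 have at least 300 coding bases. With TMM scaling, 17 members were higher and 0 lower. Rpl31, near the exit of the peptide tunnel, was at 397 CPM in miR-146a-/- and 530 in DKO (0.42), Rps15 at 587 and 779 (0.41), and Rpl35, also at the tunnel exit, at 1252 and 1646 (0.39). The lowest, Rpl27 (-0.05), Rpl22l1 (-0.03) and Rps27 (-0.03), differed little. None of the 20 passed 1.5-fold.

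In the other 3 classes few members were called, though the count depended on the scaling in B-like and classical monocyte-like cells. NK-like cells had 0 higher and 0 lower (7.55% of genes called) and a median of 0.07, with Rpl7a, Rps15 and Rpl10 highest, at 0.22, 0.21 and 0.16, and Rpl4, Rps27l and Rpl3 lowest, at -0.11, -0.11 and -0.08. Classical monocyte-like cells had 0 and 0 (12% called; 3 higher and 0 lower with TMM scaling) and a median of 0.10, with Rpl7l1, Rpl10 and Rps15a highest, at 0.21, 0.21 and 0.20, and Rps29, Rps18 and Rps28 lowest, at -0.10, -0.06 and -0.02. B-like cells had 0 higher and 1 lower (27.9% called), the lower one being Rps27 at -0.28, with Rps29 at -0.23 and Rpl37a at -0.21 next and Rpl10, Rpl7a and Rps27l highest at 0.25, 0.21 and 0.17. All genes of the B-like cells had a median of -0.13 here, against -0.01 for the members; with TMM scaling, which moved the median of all genes to 0.03, 8 members were higher and 0 lower.

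Single cells spread widely around these pooled shares, and cells with a share under 5% formed a group of their own. They made up 13.5%, 7.60%, 3.69% and 4.03% of kept cells. Their median depth was 2160, 2287, 2633 and 2260 UMIs, against 7309, 8682, 8085 and 7765 in the rest, and Malat1, an RNA kept in the nucleus, took 2.18%, 1.82%, 0.966% and 1.41% of their UMIs against 0.606%, 0.467%, 0.454% and 0.458%. Between 54.3% and 71.6% of them met no gate. Without these cells the library shares were 20.01%, 17.8%, 17.7% and 18.3%. Among gated classes with at least 50 cells in the library they were most frequent in neutrophil-like cells of miR-146a-/- (33.3%) and DKO (16.2%) and in patrolling monocyte-like cells of DEN-CDHFD WT (20.1%), followed by ILC1-like (12.4%) and NKT-like cells (12.4%) of young WT, and their part in the class differences was not tested. Such cells thus differed in number where the share differed too in several classes. These included neutrophil-like cells of miR-146a-/- and DKO and ILC1-like cells of young WT and DEN-CDHFD WT (4.56% in the latter). C1q-high macrophage-like cells had 7.14% in DEN-CDHFD WT and 1.22% in miR-146a-/-. Patrolling monocyte-like cells had 6.41% in young WT and 2.86% in miR-146a-/-, although young WT had the higher share (14.4% against 13.8%). NK-like cells had 1.75% in young WT and 1.66% in DEN-CDHFD WT, although their shares differed. Cells gated on Xcr1 and Clec9a had 6.22% and 0.952% in these libraries, although young WT had the higher share.

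Cells with at least 2 UMIs of 7 cycling genes were compared with the rest in the 10 common classes, in libraries with at least 20 such cells. They had a lower share in the naive, PD-1+ and PD-1- CD8, conventional CD4, NKT-like, B-like and Xcr1 and Clec9a gates of each library compared. In naive CD8 T-like cells the cycling cells held 22.5%, 21.7%, 22.7% and 23.9% and the others 30.2%, 30.3%, 28.9% and 31.8%. In PD-1+ CD8 T-like cells they held 17.7%, 15.1%, 16.8% and 18.4% against 20.1%, 16.6%, 18.0% and 21.1%. The young WT library went the other way in NK-like cells, with 17.1% in cycling and 14.9% in other cells, and in ILC1-like cells, with 14.9% and 13.9%, as did DKO in patrolling monocyte-like cells, with 15.5% and 15.002%. Cycling cells were deeper, at a median of 14350 against 9750 UMIs in naive cells of young WT, and their parts in the difference were not tested. In PD-1+ CD8 T-like cells, cells of 3000 to 6000 UMIs held 18.2%, 15.95%, 17.2% and 20.6%, and cells over 12000 UMIs 20.2%, 16.8%, 18.0% and 18.3%.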

How the data were processed

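The deposited values are UMI counts per gene and cell, which the authors made with Cell Ranger 7.0.1 on mm10, per the submitters' processing notes, from 10x 5′ libraries of sorted CD45+ liver cells. The study's methods name another version, and whether intronic reads were counted is not given in the sources used here. Cells with 600 to 6000 genes detected and at most 5% mitochondrial UMIs were kept, 36286 of 39121 in all. Classes were gated on raw counts of marker genes. UMIs were summed per class and library, and shares are percents of all UMIs with exact binomial 95% intervals; differences carry Newcombe intervals. Log2 ratios of CPM used a prior of 0.5 counts and at least 500 UMIs over both libraries, and calls needed 1.2-fold. With 1 library per group, no test was run and no p-value is given. A wider set of members and some single genes are not reported here. The ratio code was checked on simulated counts. Coding lengths came from GENCODE M21 and start sequences from RefSeq. The members and gene lists were chosen with earlier results of these data known. Members are named in the text when they were among the widest, narrowest, most or least abundant, or highest or lowest in a comparison, or belong to the stalk, a paralog pair or the short members. Python 3.11.15, NumPy 2.4.6, pandas 2.3.3, SciPy 1.17.1, matplotlib 3.10.9, R 4.3.3 and edgeR 4.0.16 (TMM factors only) were used.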

Additional observations from a re-analysis of the deposited data

Results flagged for a closer look

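The difference in ribosomal protein share between libraries was not alike across classes. For DEN-CDHFD WT minus young WT, the highest class difference (gamma-delta T-like) exceeded the lowest (PD-1+ CD8 T-like) by 6.90 points. For miR-146a-/- minus DEN-CDHFD WT, C1q-high macrophage-like cells exceeded naive CD8 T-like cells by 3.57 points, and for DKO minus miR-146a-/-, NKT-like exceeded cDC2-like cells by 3.03 points. These were picked out because the class differences within a comparison lay far apart, and whether the classes differ from each other was not tested, since each group has 1 library.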

How the results depend on the processing

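No paired analysis was possible because each group has 1 library. Intervals cover counting error only, the differences between mice were not measured, and age, carcinogen and diet cannot be told apart. Gates need marker UMIs, so depth limits which cells enter a class, and genes under 500 UMIs in a class were not compared. Alternatives that leave out members under 300 coding bases were chosen after seeing the data. The cause of each shift below was not tested.

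Thinned gates were read on cells of at least 2000 UMIs, thinned to that depth. The library shares, in the order used above, were 19.4%, 17.5%, 17.5% and 18.2% over all UMIs of those cells. They were 19.1%, 17.3%, 17.4% and 18.0% with a mitochondrial limit of 10%, and 19.0%, 17.2%, 17.3% and 17.9% over all deposited cells. As means over cells they were 17.3%, 16.7%, 17.2% and 18.0%. They were 19.8%, 18.0%, 18.0% and 18.5% without mitochondrial, Ccl5 and receptor genes in the denominator; 19.8%, 18.2%, 18.1% and 19.2% in cells of 3000 to 12000 UMIs; and 17.2%, 16.0%, 15.6% and 16.3% without the short members.

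The median class difference of DEN-CDHFD WT minus young WT was -0.505 points with the 10% limit, -0.517 over all deposited cells, -0.282 as means over cells, -1.37 with thinned gates and -0.0938 in cells of 3000 to 12000 UMIs, and turned to 0.0576 without the short members. For miR-146a-/- minus DEN-CDHFD WT it was 0.571 over all deposited cells, 1.11 as means over cells, 0.436 with thinned gates, 0.580 with no UMI of an excluded lineage allowed, 0.447 in cells of 3000 to 12000 UMIs and 0.211 without the short members. For DKO minus miR-146a-/- it was 0.969 as means over cells, 1.02 with no UMI of an excluded lineage and 1.26 in cells of 3000 to 12000 UMIs.

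In PD-1+ CD8 T-like cells, a call past 1.5-fold left 1 member higher and 8 lower in DEN-CDHFD WT than in young WT, 6 higher and 0 lower in miR-146a-/- than in DEN-CDHFD WT, and 0 higher in DKO than in miR-146a-/-. Past 1.2-fold and without the short members, 0 were higher in the first comparison, and 8 were higher and 0 lower in the second. The median make-up spread was 0.48 within the miR-146a-/- library alone.

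Of 312 single class differences under alternatives, 92 stayed within the 95% counting interval, 190 moved past it and 30 turned sign. In DEN-CDHFD WT minus young WT, thinned gates gave PD-1- non-naive CD8 T-like -2.28, NKT-like 0.133 and B-like -0.451 points; cells of 3000 to 12000 UMIs gave B-like -0.0938 and Xcr1 and Clec9a-gated 1.93; and leaving out the short members gave naive CD8 T-like 0.0576 and NKT-like 0.0496.

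In miR-146a-/- minus DEN-CDHFD WT, thinned gates gave NKT-like -1.23, B-like 0.436, Xcr1 and Clec9a-gated -0.397 and cDC2-like -0.0863; cells of 3000 to 12000 UMIs gave B-like 0.0788, classical monocyte-like -0.159 and Xcr1 and Clec9a-gated -0.546; no UMI of an excluded lineage gave conventional CD4 T-like 0.0905, ILC1-like -0.0502 and B-like 0.456. All deposited cells gave B-like 0.122 and means over cells 0.167; the reduced denominator gave conventional CD4 T-like 0.0599; leaving out the short members gave NKT-like -0.332, NK-like -0.335 and ILC1-like -0.265.

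In DKO minus miR-146a-/-, B-like cells gave 0.969 as means over cells, 0.932 with thinned gates, 1.499 with the reduced denominator and 1.46 in cells of 3000 to 12000 UMIs; those cells also gave C1q-high macrophage-like -0.956 and Xcr1 and Clec9a-gated -0.530, and thinned gates gave cDC2-like 0.728. Of 320 class shares 53 stayed within the 95% counting interval and 267 did not, and all 32 ratios of naive to PD-1+ CD8 T-like cells moved, within 1.42 to 1.95. Of 132 log2 ratios of named members, 114 stayed within 2 counting errors.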
